A study of Mus musculus with 6 samples.

Results

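The septin genes were followed in follicular B cells of mice with 1 or 2 floxed alleles of Myh9, the gene for the myosin IIa heavy chain. Septins are GTP-binding proteins that join end to end into filaments, rings and gauzes beneath the plasma membrane. They serve as scaffolds for actin and non-muscle myosin II, act as diffusion barriers, and take part with the contractile ring in cytokinesis. In T lymphocytes, septins of the cell cortex are known for their part in cell shape and migration. Mammalian septins fall into 4 groups by sequence, named after Sept2, Sept3, Sept6 and Sept7, and a filament is built from members of different groups, with Sept7 as the only member of its own.

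The gene symbols of septins had been turned into calendar dates in the deposited table, as happens in a spreadsheet, so that a search by name does not find them. The members were chosen as the rows whose symbol reads as a day number after Sep, from 1 to 14, which left out number 15, a selenoprotein. This gave 24 entries for 13 septin genes, Sept1 to Sept12 and Sept14, of 25017 entries for 20460 genes in all. Transcripts with the same coding sequence form 1 entry. The gene behind each date was checked by position. All 13 lay on the chromosome that GENCODE M21 gives for the septin of that number, and in 13 of 13 at least 1 end was displaced from the GENCODE position (GRCm38) by the same distance as the 10 nearest genes, to within 1000 bases. No date of the septins covered more than 1 position. Of the dates made from Mar, 2 covered more than 1 position each and so merged unlike genes.

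The cells were B220+AA4.1-CD23+CD21lo cells sorted from C57BL/6 mice, 3 samples from CD23Cre+Myh9fl/wt animals (wt/fl below) and 3 from CD23Cre+Myh9fl/fl animals (fl/fl). All 6 samples carried the CD23Cre transgene, in which Cre is driven by the promoter of Fcer2a, which is active from the transitional stage on. Exon 3 of Myh9 is the floxed part, so the wt/fl group is haploinsufficient and not wild-type. Whether the samples of a genotype came from separate sorts, and the age of the mice, are not given in the labels. The authors' table gives 1 pooled value per genotype, in fragments scaled to transcript length and sequencing depth (FPKM). Without values per mouse there is no error to give and no test could be made, and every difference reported here is a description without a replicate check. Depth per sample is unknown. Myh9 itself was at 50.6 (wt/fl) against 21.1 FPKM (fl/fl), 41.7% of the haploinsufficient level. This value is for the whole gene and not for exon 3 alone, so it does not measure how much intact message was left. The paper checked the deletion by mRNA of exon 3 and by myosin IIa protein. Of the B cell markers, Cd79a, a signalling chain of the B cell receptor, was at 1098 and 1115 FPKM, and Pax5, the transcription factor of B cell identity, at 357 and 373 FPKM.

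The septins with appreciable mRNA in these cells share the P-loop, the glycine-rich turn that holds the phosphates of GTP; its coding bases are shown because they let the groups that are compared below be set side by side. They were read from the longest complete coding sequence of each gene in GENCODE M21 (GRCm38), in which a match to the P-loop pattern was found for 13 of 13 septins. The 24 bases are shown for the 6 genes compared below, 5′ to 3′ on the coding strand, with capitals for the codon of the first glycine and for the closing glycine, lysine and serine codons.
Sept1: GGGgagtcaggcctgGGGAAATCC
Sept2: GGTgaatctggtctaGGAAAATCA
Sept6: GGGgagacaggtttgGGCAAGTCC
Sept7: GGTgaatctggactgGGAAAGTCG
Sept9: GGGcagagcggcctcGGGAAGTCC
Sept11: GGTgagacaggtattGGCAAATCC

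The codons after that of the first glycine set the Sept3 and Sept6 groups apart but not Sept7 from the Sept2 group. The second codon was CAG in all 3 members of the Sept3 group, where it was GAA or GAG in the other 10 septins. The third codon was ACA or ACT in all 5 members of the Sept6 group and in none of the others. Among the genes shown, the 24 bases differed from those of Sept2 at 4 positions in Sept7, at 7 in Sept1, of Sept2's own group, and at 11 in Sept9. In 13 of 13 septins these codons were split by an intron after the first base, so in the genome the stretch is exonic but spans 2 exons. On GRCm38 it runs on chromosome 7 from 127218035 to 127218141 in Sept1 (minus strand), on chromosome 1 from 93491277 to 93495601 in Sept2 (plus), on chromosome X from 36966769 to 36975063 in Sept6 (minus), on chromosome 9 from 25265496 to 25277566 in Sept7 (plus), on chromosome 11 from 117351620 to 117352171 in Sept9 (plus) and on chromosome 5 from 93139563 to 93148409 in Sept11 (plus).

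The whole coding sequences of these 6 genes, 1086 to 1752 bases long, differed widely. Sept6 and Sept11, of the same group, were identical at 75.1% of aligned bases, and Sept1 and Sept2 at 66.2%. The 13 pairs from different groups lay between 57.0% and 67.1%. The longest identical run between any 2 of the 6 was 26 bases, between Sept6 and Sept11, so a longer fragment from the coding sequence could be placed on a single one of them.

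Follicular B cells had a septin repertoire of 6 genes, with at least 1 gene from each of the 4 groups, and none of them differed between the genotypes by 1.5-fold. These 6 genes averaged 1 FPKM or more, the limit for a gene to be described, and lay between 21.7 and 44.3 FPKM in wt/fl and between 17.8 and 44.7 FPKM in fl/fl cells. In rank of mean FPKM they stood between the 61.4th and 82.8th percentile of the 9880 genes averaging 1 FPKM or more. The other 7 septins were all under 0.64 FPKM in both genotypes. No gene stood near the limit, with Sept9 at a mean of 19.7 FPKM just above it and Sept10 at 0.518 FPKM just below it.

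**Figure D1:**
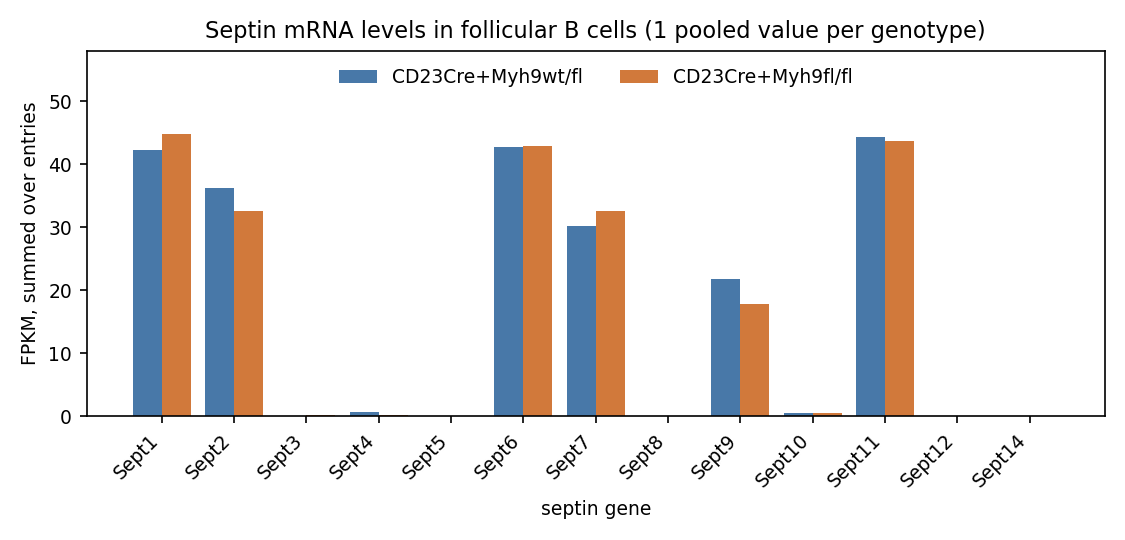
FPKM of each of the 13 septin genes, summed over its entries, with 1 bar per genotype and no error bars because the deposited values are pooled. Sept1, Sept2, Sept6, Sept7, Sept9 and Sept11 stand at 17.8 FPKM or more in both genotypes, and the other 7 genes are at or near 0.

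Of the Sept2 group, whose members occupy 1 position of the filament and can stand in for each other there, Sept1 and Sept2 were present. Sept1 (single entry, chromosome 7 from 134357955 to 134361959, all positions of whole genes being mm9) had 42.3 (wt/fl) against 44.7 FPKM (fl/fl), a log2 ratio of 0.08. Sept2 (chromosome 1 from 95375569 to 95406309), a septin of stress fibres and of the cleavage furrow, was at 36.2 and 32.5 FPKM, a log2 ratio of −0.15. All log2 ratios here are fl/fl over wt/fl after 1 was added to each FPKM, and ratios of low values are understated by it. Sept1 was thus slightly higher and Sept2 slightly lower in fl/fl, and with the absent Sept4 and Sept5 the group summed to 79.2 (wt/fl) against 77.5 FPKM (fl/fl).

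Of the Sept6 group, Sept6 and Sept11 were present at nearly equal levels. Sept11 (single entry, chromosome 5 from 93522482 to 93603984) had the highest level of the family in wt/fl, with 44.3 FPKM, and 43.6 FPKM in fl/fl, a log2 ratio of −0.02. Sept6 (chromosome X from 34450828 to 34529690) was at 42.7 and 42.9 FPKM, a log2 ratio of 0.01 that turned to 0.00 or just below it with upper quartile scaling. Sept7 (chromosome 9 from 25060039 to 25116156), the obligatory subunit that has no relative in its group, was at 30.2 and 32.6 FPKM, a log2 ratio of 0.10.

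Sept9 was the lowest of the 6 and differed most between genotypes. It is the septin that the octameric form of the septin unit holds and the hexameric form lacks. It lay at 21.7 (wt/fl) against 17.8 FPKM (fl/fl; chromosome 11 from 117060974 to 117223639), 81.7% of the haploinsufficient level, a log2 ratio of −0.28. Among the 5342 genes with a mean between 10 and 100 FPKM, 4.12% had a log2 ratio at or below that of Sept9, and 13.7% one at or below that of Sept2. Of all 9880 genes, 1386 were at least as far from 0 as Sept9 in either direction. Sept9 is singled out here as the most different of 6 genes, so these shares do not show that its difference is unusual.

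The order of the levels was loose. In wt/fl cells it ran Sept11, Sept6, Sept1, Sept2, Sept7 and Sept9, with steps between neighbours of 1.01-fold to 1.39-fold. In fl/fl cells it ran Sept1, Sept11, Sept6, Sept7, Sept2 and Sept9. Sept1, Sept6 and Sept11 lay within 1.05-fold of each other in wt/fl and within 1.04-fold in fl/fl. Sept7 and Sept2 were 1.20-fold apart in wt/fl and level in fl/fl, where both were at 32.5 or 32.6 FPKM. With no spread between mice, no pair of neighbours can be said to differ. The lowest level, that of Sept9, was below the next by 1.39-fold in wt/fl and 1.83-fold in fl/fl.

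Together the 13 septin genes summed to 218.9 (wt/fl) against 215.1 FPKM (fl/fl), a log2 ratio of −0.02. The 6 genes compared made up 217.6 and 214.1 FPKM of these totals. Their median log2 ratio was −0.01, with 3 genes above 0 and 3 below, beside a median of 0.00 over all 9880 genes. A 1.5-fold difference served as the limit for calling a gene higher or lower. Of the 6 septins, 0 were higher in fl/fl by that much and 0 lower, while of all genes compared 0.789% were higher and 1.53% lower. At a lower limit, 0.32 on the log2 scale, there were again 0 septins in either direction, against 4.6% of all genes higher and 5.48% lower. With 6 genes, shares this small give few or no calls in any case, so the counts of 0 do not set the septins apart from the other genes.

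**Figure D2:**
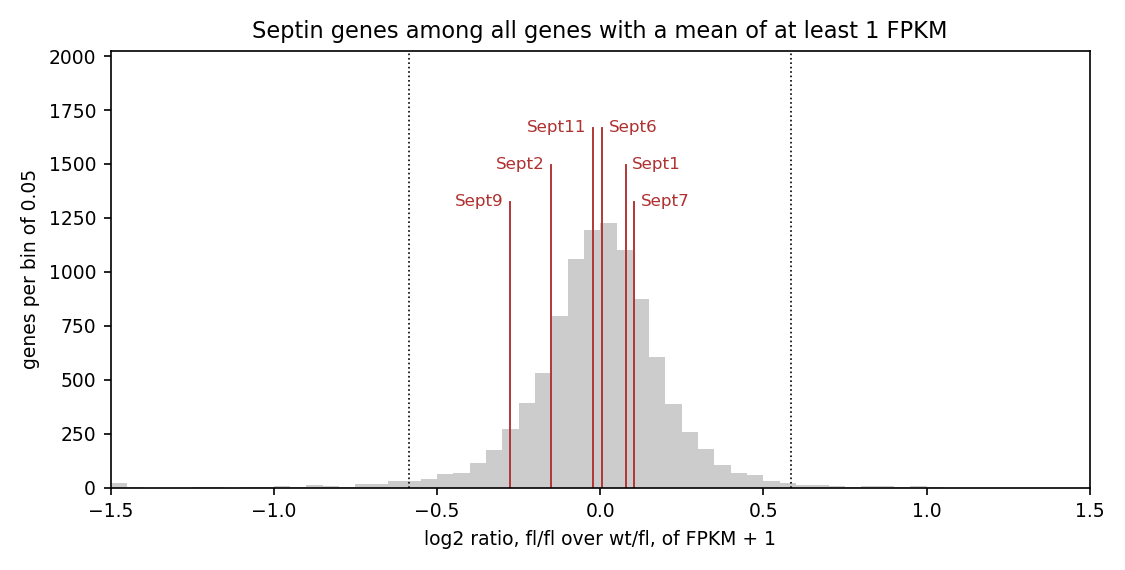
Grey bars count the genes averaging 1 FPKM or more in bins of 0.05 of the log2 ratio of FPKM + 1, fl/fl over wt/fl, with values beyond 1.5 in the end bins. Red lines mark the 6 septin genes, which lie between −0.28 (Sept9) and 0.10 (Sept7), all inside the dotted lines at 1.5-fold.

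Both entries of Sept2, the smaller entries of Sept6 and the second entry of Sept7 differed more between genotypes than the whole gene. The leading entry of Sept2 had a log2 ratio of 0.18, opposite in sign to the −0.15 of its gene. The leading entry of Sept7 differed less than its gene. That of Sept9, which made up nearly all of its gene, was close to it (−0.26 against −0.28). Sept2, Sept6 and Sept7 each had at least 2 entries averaging 1 FPKM or more. The table does not say which isoform an entry stands for, and fragments from exons that entries share were divided between them by the authors' software, so the split is less certain than the sum.

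Sept2 had the largest shift of the 3. Its leading entry was at 20.8 (wt/fl) against 23.7 FPKM (fl/fl), and its second entry at 15.4 and 8.76 FPKM, a log2 ratio of −0.75. The leading entry thus held 57.5% (wt/fl) against 73.0% (fl/fl) of Sept2, a shift of 15.5 percentage points. Of the 1232 genes with at least 2 such entries, 17.9% had a shift at least as large, and 32.6% reached the limit of 10 points that was used to call a shift, against 1 of the 3 septins. The median of all 1232 genes was 6.53 points.

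The 4 entries of Sept6 were at 33.7, 7.34, 0.940 and 0.801 FPKM in wt/fl and at 33.1, 5.0, 3.26 and 1.56 FPKM in fl/fl. Its leading entry held 78.7% and 77.1% of the gene, and its largest shift was 5.53 points, in the second entry. The third entry had the largest log2 ratio of any septin entry averaging 1 FPKM or more, 1.13, at a level of only a few FPKM. The 2 entries of Sept7 were at 21.0 and 9.24 FPKM in wt/fl and at 21.3 and 11.3 FPKM in fl/fl, a shift of 4.06 points. Sept9 was almost wholly in 1 of its 3 entries, which was at 21.1 and 17.4 FPKM and held 97.3% and 98.2% of the gene. Its second entry was at 0.597 and 0.317 FPKM.

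Of the 11 septin entries averaging 1 FPKM or more, 1 (the third of Sept6) was higher in fl/fl by 1.5-fold or more and 1 (the second of Sept2) was lower. Among all entries of that level, 2.86% were higher and 3.37% lower. The gene sums differed by 1.11-fold for Sept2 and 1.00-fold for Sept6.

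**Figure D3:**
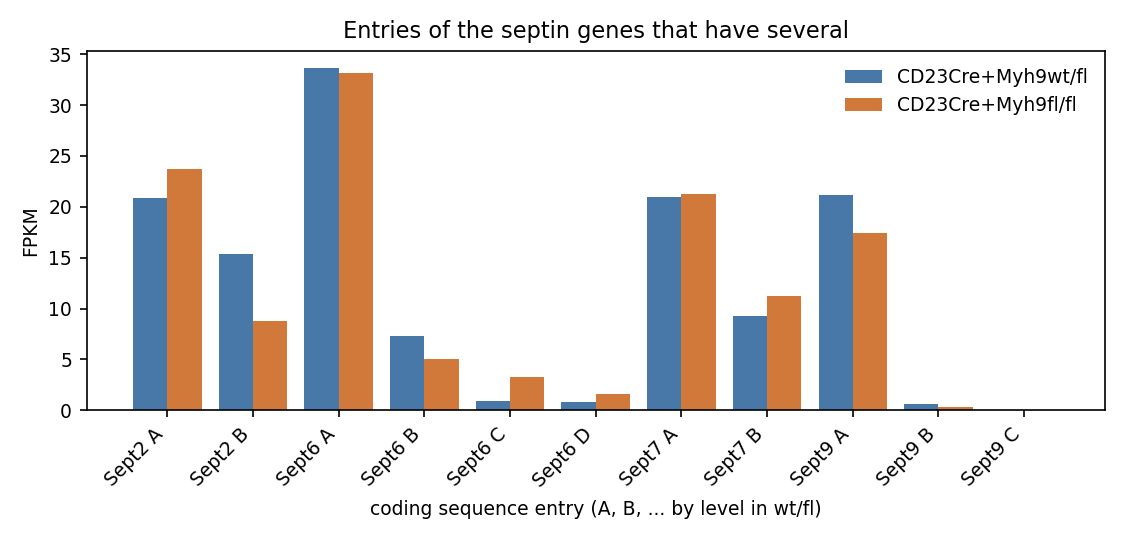
FPKM of each entry of the 4 compared septin genes that have several, with 1 bar per genotype and entries lettered by their level in wt/fl. Entry B of Sept2 is at 15.4 (wt/fl) against 8.76 FPKM (fl/fl) while entry A is at 20.8 and 23.7 FPKM, and the leading entries of Sept6 and Sept7 are nearly level.

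The 7 remaining septins were at or near 0 and give no usable ratio. Sept10, of the Sept6 group, summed to 0.489 (wt/fl) against 0.546 FPKM (fl/fl) over 2 entries. Sept4, a septin of platelets, sperm and brain, was at 0.636 and 0.171 FPKM. Sept3, a septin of neurons, was at 0.122 and 0.136 FPKM, and Sept8 summed to 0.0341 and 0.0990 FPKM. Sept5, known from platelets and synapses, was at 0.0714 and 0.0315 FPKM. Its position in the table is that of Gp1bb as well, a platelet gene at 0.0384 and 0.0333 FPKM, and fragments of the 2 cannot be told apart with certainty. Sept14 was listed at 0 in wt/fl and at 0.0184 FPKM in fl/fl, and Sept12 was listed at 0 in both genotypes.

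Markers of other cells were measured beside the septins, because blood cells other than B cells express septins too. The 10 neutrophil markers, 9 of them in the table, summed to 376.9 (wt/fl) against 66.5 FPKM (fl/fl), with S100a9 and S100a8 the most abundant. Mpo and Elane were near 0 in both genotypes, at 0.0916 and 0.119 FPKM in wt/fl and listed at 0 in fl/fl. All 7 neutrophil markers averaging 1 FPKM or more were lower in fl/fl by 1.5-fold or more. The 4 erythroid markers in the table summed to 3.84 and 0.726 FPKM. Of the septins compared, Sept9, Sept2 and, by a log2 ratio of only −0.02, Sept11 were lower in fl/fl, while Sept1, Sept6 and Sept7 were higher. Of the septins near 0, Sept4 and Sept5 were lower, while Sept3, Sept8, Sept10 and Sept14 were higher. The part of these cells in their values was not tested. In bulk RNA, fewer cells of a type and less RNA per cell cannot be told apart. The 7 platelet markers summed to 2.53 and 3.64 FPKM, the 5 T cell markers to 8.26 and 6.82 FPKM and the 6 macrophage markers in the table to 14.2 and 13.4 FPKM.

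A list of 35 genes was compared in the same way, made up of septin partners and of genes of the contractile ring, central spindle and abscission. All are called partners below, whether or not they act with septins directly. All 35 were in the table, and 21 averaged 1 FPKM or more. Of these 21 genes, 0 were higher in fl/fl by 1.5-fold or more and 1 was lower, Myh9 itself, beside the 0.789% and 1.53% of all genes. Their median log2 ratio was 0.01, with 11 above 0 and 10 below. Myh9 is the gene deleted by design, and without it 20 genes were left, 0 of them higher and 0 lower by 1.5-fold.

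Of the 4 small GTPases listed, Cdc42 and Rhoa were abundant and the others low. Cdc42, whose effectors bind septins directly, was at 229.6 (wt/fl) against 246.2 FPKM (fl/fl), a log2 ratio of 0.10. Rhoa, which activates myosin II through its kinases, was at 226.8 and 234.8 FPKM, a log2 ratio of 0.05. Rhob was at 4.37 and 4.94 FPKM and Rhoc at 0.762 and 0.374 FPKM. Of the 5 Cdc42 effectors that bind septins, only Cdc42ep3 averaged 1 FPKM or more, with 5.52 and 6.15 FPKM. Cdc42ep4 was at 1.07 and 0.436 FPKM, and Cdc42ep5 was listed at 0 in both genotypes.

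The other heavy chains of non-muscle myosin II were near 0 in both genotypes. Myh10 was at 0.297 and 0.262 FPKM and Myh14 at 0.0318 and 0.0129 FPKM. The 3 light chains averaging 1 FPKM or more stood above every septin. Myl12b was at 470.1 and 500.6 FPKM (log2 ratio 0.09), Myl6 at 429.2 and 432.7 FPKM (0.01) and Myl12a at 63.4 and 74.2 FPKM (0.22). Myl12a and Myl12b are near-identical copies, so how fragments were shared out between them is uncertain.

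Anillin, which links septins to myosin II and actin in the cleavage furrow, was nearly absent from these sorted cells, with Anln at 0.446 (wt/fl) against 0.358 FPKM (fl/fl). The central spindle genes were low as well, and the 5 of them summed to 9.84 and 8.63 FPKM. Kif23, a kinesin of the central spindle, was named after its values were seen. Of the partners averaging 1 FPKM or more, it was the nearest to the limit after Myh9. It was at 2.58 and 1.5 FPKM, a log2 ratio of −0.52 that passed 1.5-fold with a smaller pseudocount. Kif20a, the other kinesin listed, was at 0.526 and 0.57 FPKM. The 5 abscission genes averaging 1 FPKM or more had log2 ratios between −0.15 and 0.10.

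**Figure D4:**
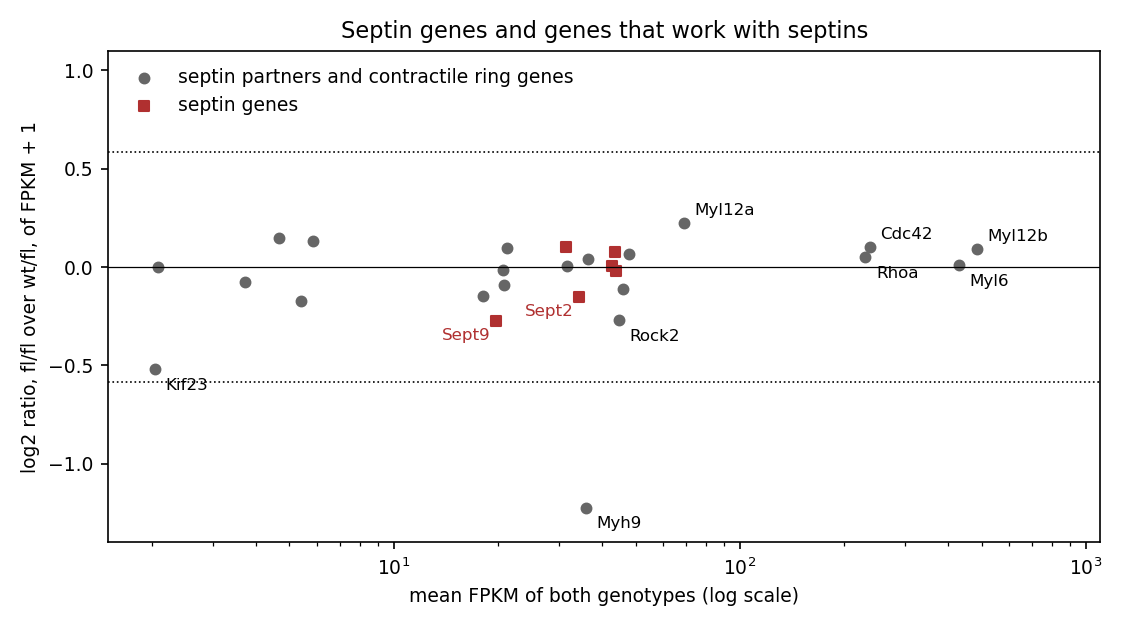
Log2 ratio of FPKM + 1, fl/fl over wt/fl, against the mean FPKM of both genotypes on a log scale, for the 21 partner genes (grey circles) and the 6 septin genes (red squares) averaging 1 FPKM or more. Myh9, at −1.22, is the only point beyond the dotted lines at 1.5-fold.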

How the data were processed

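RNA of sorted follicular B cells was purified, amplified with the Ovation RNA-Seq system and sequenced by the authors, in 3 samples per genotype. Per the labels, reads were processed with Bowtie, TopHat and Cufflinks (versions are not given in the sources used here). The authors deposited FPKM in a table of Cuffdiff layout, pooled per genotype. The submitters' notes name mm10 as build, but positions differ from GRCm38 (Myh9 by −169569 bases) and 118 entries lie on sequences named as in older builds, so positions are taken as mm9 and were not converted. The authors' own fold changes, test statistics, p-values and q-values were not used. Strand-specific counting is not stated.

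FPKM was summed per gene, with dates kept apart by position. Genes averaging 1 FPKM or more were compared by log2 of fl/fl over wt/fl with a pseudocount of 1. Low FPKM multiplied by transcript length lay within 10% of whole steps for 20.2% (wt/fl) and 27.6% (fl/fl) of values, where an even spread gives 20%. Most values were thus off whole steps in both genotypes, and reads were not recovered. Coding sequences were aligned globally (Biopython 1.88) and identity counted over aligned bases. The protein comparison planned was replaced by coding sequences, as no protein table was used here. Only the log2 ratios and the calls past the fold limit were tested on simulated data, with changes larger than the limit, little noise and no low genes. Entry shares, positions and sequence comparisons were not tested in this way. Other pseudocounts, filters, scalings, fold limits and single entries were tried as alternatives. Members, lists and limits were chosen with earlier results of these data known. The limit of 10 points for shares and the window of 10 to 100 FPKM were set after these values were seen. The genes named are every septin, Myh9, Myh10, Myh14, Anln, Cdc42, the 5 partners with the highest mean, any partner past 1.5-fold, and the most abundant markers. Rows given beyond that rule were chosen after their values were seen.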

Additional observations from a re-analysis of the deposited data

How the results depend on the processing

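No paired analysis was possible because the values are pooled per genotype, and for the same reason no sample could be left out. A change of less than 0.1 on the log2 scale was taken as no move, since no spread between samples exists. The median log2 ratio of the septins lay between −0.01 and 0.02 over the pseudocounts, filters and scalings run and with single entries, and crossed 0 with a filter of 0.5 FPKM, no filter or single entries. The log2 ratio of their summed FPKM lay between −0.03 and −0.02. Counts past the fold limit moved in 8 of the 66 medians, totals and counts recomputed. With single entries in place of genes, 1 septin entry was higher and 1 lower, where the genes gave 0 and 0, and 1 partner entry was higher (of Pdcd6ip) and 2 lower (of Myh9 and Arhgef2), where the genes gave 0 and 1. With no pseudocount, with 0.1 or 0.5, or at the lower fold limit (0.32 on the log2 scale), 2 partners were lower, Myh9 and Kif23. Sept6 crossed 0, from 0.01 to −0.00043 on the log2 scale, with upper quartile scaling, and the other 5 septins kept their sign under each pseudocount and scaling. Depth per sample is unknown and limits most the septins under 1 FPKM.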
